A study of Homo sapiens with 20 samples.

Results

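The genes described here are 39 ubiquitin ligases related to HUWE1 by domain, size or task, taken by name from both deposited tables, which hold 45372 gene symbols each. All 39 were found in both tables. HUWE1 itself was left out of the list because it was the target. By class there were 25 HECT ligases (9 of the NEDD4 family, 6 HERC proteins and 10 others), 5 UBR proteins with KCMF1, the giants BIRC6 and MYCBP2, 3 U-box ligases and 3 RBR ligases. The question put to them was whether transcripts of related ligases were higher when the HUWE1 transcript was reduced.

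A ubiquitin ligase picks the substrate and brings it to an E2 enzyme charged with ubiquitin. HECT ligases, HUWE1 among them, and RBR ligases first take the ubiquitin onto a cysteine of their own, whereas U-box ligases pass it from the E2 directly. UBR proteins read destabilising residues at protein ends, and HUWE1, UBR4, BIRC6, MYCBP2, HERC1 and HERC2 are among the largest ligases known. HUWE1 takes part in the turnover of MCL1, MYC and orphaned or misfolded proteins.

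The cells were HEK293T, a human embryonic kidney line carrying the SV40 large T antigen, given siRNA against HUWE1 or non-targeting (NT) control siRNA. There were 20 libraries in 5 groups of 4 biological replicates. The first table held NT and HUWE1 siRNA libraries without a set number, here set 1, and the second held HUWE1 siRNA sets 2 and 3 with a single group of NT libraries for both. The labels give no siRNA sequence, dose or time and do not say how the sets differ. Their extraction text speaks of earlier siRNA work on UBA1 and E2 enzymes, while the labels of these libraries name HUWE1 or non-targeting siRNA only. RNA levels are in TPM, a transcript share scaled for transcript length and library total, so levels of different genes may be compared within a table. Every library summed to the same total and the sequencing depth is unknown. Protein amount and ligase activity were not measured.

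The libraries were of HEK293T character by their markers. VIM, PAX2 and LHX1 were present in every group, the last 2 at low levels, while PTPRC, COL1A2, DCN, KRT5 and KRT14 were at or near 0. Some markers moved with HUWE1 siRNA in set 1. VIM went from between 529 and 562 TPM to between 472 and 502 TPM, and LUM from between 3.92 and 6.22 TPM to between 6.36 and 7.71 TPM. The 4 fibroblast markers together summed to 15.1 to 16.7 TPM in NT and 17.4 to 18.6 TPM with HUWE1 siRNA, from COL1A1 and LUM with COL1A2 and DCN near 0. None of these ranges overlapped, and their part in the set 1 results was not tested. In the second table the fibroblast sum was 8.10 to 11.3 TPM in NT, 7.73 to 9.29 TPM in set 2 and 8.58 to 9.44 TPM in set 3, with overlap. Libraries of a group correlated across genes at 0.980 or more, and the lowest value was in the NT libraries of sets 2 and 3. Transcripts of the mitochondrial genome took 25.2% ± 0.692 of TPM without and 25.6% ± 0.484 with HUWE1 siRNA in set 1 (SD, n = 4). In the second table that share was 17.7% ± 0.762 in NT, 16.9% ± 0.529 in set 2 and 15.9% ± 0.372 in set 3 (SD, n = 4). Recomputing TPM without these genes ended or gained a call for 6 members, each named with its result. In bulk RNA, fewer cells with a transcript and less of it per cell cannot be told apart.

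HUWE1 stood at 157, 162, 155 and 155 TPM in the NT libraries of set 1 and at 86.1, 86.9, 83.5 and 83.6 TPM after HUWE1 siRNA. The NT libraries of sets 2 and 3 held 162, 167, 166 and 159 TPM, set 2 held 95.6, 94.3, 91.6 and 96.8 TPM, and set 3 held 79.9, 89.7, 80.3 and 89.3 TPM. The target was thus reduced in every library, to 54.1%, 57.9% and 51.9% of control in sets 1, 2 and 3. Its log2 fold changes were -0.88 ± 0.025, -0.78 ± 0.045 and -0.94 ± 0.045 (SE, limma adjusted p = 1.69e-07, 7.45e-06 and 8.17e-07). Fold changes here are on the log2(TPM + 1) scale, which understates the change of low transcripts, and a gene is said to be called, or to rise or fall, at a Benjamini-Hochberg adjusted p under 0.05 over all genes tested.

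The related ligases were all less abundant than HUWE1 in control cells. Against 157 TPM of HUWE1 in set 1, the highest members were ARIH2 at 102 ± 2.18 TPM, STUB1 at 93.1 ± 1.42, UBR7 at 82.6 ± 3.64, UBE3C at 75.6 ± 1.59 and UBR4 at 67.5 ± 2.21 (SD, n = 4). In the controls of sets 2 and 3 the order was UBE3C at 92.6 ± 2.86 TPM, UBR7 at 89.3 ± 2.12, STUB1 at 87.8 ± 2.99, ARIH2 at 77.6 ± 10.2 and TRIP12 at 59.3 ± 0.523 (SD, n = 4). The median member stood at 25.3 and 26.7 TPM in the 2 control groups, and 27 members lay between 10 and 50 TPM in each. At the low end, HECW2 was at 1.77 ± 0.188 and 1.48 ± 0.081 TPM (SD, n = 4), and HECW1, a relative best known from neurons, averaged 0.197 and 0.145 TPM and was the only member under the minimum for testing, a TPM of 1 in at least 4 libraries. Neighbours in the order overlapped in their libraries in 23 of 38 pairs in set 1 and 30 of 38 in sets 2 and 3, so most adjacent ranks were not separated. After knockdown, HUWE1 at 85.0 TPM lay below ARIH2 (100.1 TPM) and STUB1 (101 TPM) in set 1, and at 84.8 TPM below UBE3C (97.2 TPM) and UBR7 (97.1 TPM) in set 3.

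**Figure D1:**
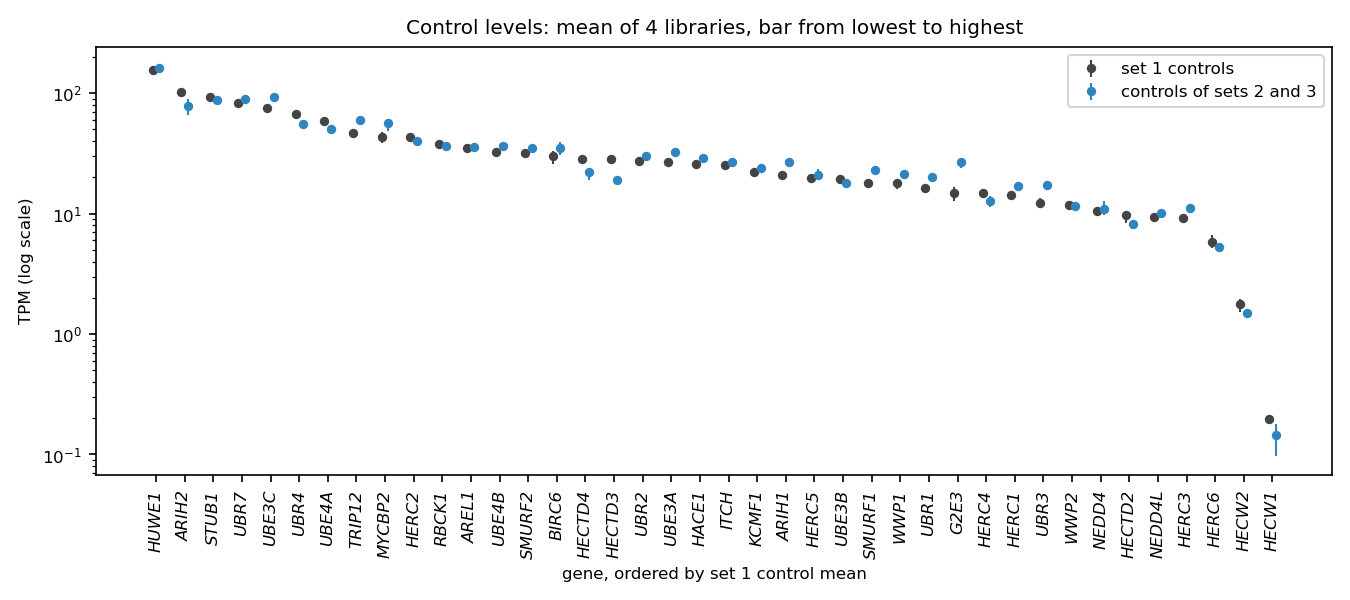
TPM (log scale, vertical axis) of HUWE1 and the 39 ligases (horizontal axis, ordered by the set 1 control mean) in the 2 control groups, with points at the mean of 4 libraries and bars from the lowest to the highest. HUWE1 is highest in both, and HECW2 and HECW1 stand apart at the low end.

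Across all members the differences were small in each set. Set 1 had 7 members higher and 4 lower of 38 tested, 28.9%, when 30.3% of 16057 tested genes were called. By direction these were 18.4% of members higher beside 12.3% of all genes, and 10.5% lower beside 17.9%. No member was called in set 2, where 0.0126% of 15860 genes were called. These were 2 genes, both lower, and HUWE1 was 1 of them. The lack of calls in set 2, here and below, is thus not read as a trait of the members. In set 3 there were 4 higher and 1 lower of 38, 13.2%, beside 11.6% of all genes, of which 7.45% were higher and 4.15% lower. The members' share called was thus near the share of all genes in each set. An unadjusted p under 0.05 was reached by 16, 1 and 10 members, 42.1%, 2.63% and 26.3%, beside 41.9%, 8.83% and 34.5% of all genes.

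The sizes of these differences were bounded. Member log2 fold changes ran from -0.30 to 0.30 in set 1, from -0.15 to 0.14 in set 2 and from -0.27 to 0.35 in set 3, with medians of 0.05, 0.01 and 0.03 beside -0.01, -0.00 and 0.01 over all tested genes. The 95% interval of a member's fold change reached a log2 rise of 0.5 for 0 members in set 1, 0 in set 2 and 1 in set 3 (NEDD4, upper bound 0.57), when 3.85%, 5.76% and 9.34% of all genes reached it. A rise of 0.25 lay within the interval of 6, 2 and 7 members, beside 21.1%, 26.7% and 33.9% of all genes. Upper bounds over all genes went up to 4.39, 3.42 and 3.07, and these shares were not matched for abundance or interval width. Fold changes above 0 were seen in 26, 20 and 23 of 38 members, beside 46.6%, 48.3% and 51.5% of all genes. TRIP12 was the only member called in both set 1 and set 3, where 30.3% and 11.6% of all genes were called. The share of all genes called in both is not given here, so the double call is not read as particular to TRIP12. Sets 2 and 3 share their controls, so their values are given side by side only.

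**Figure D2:**
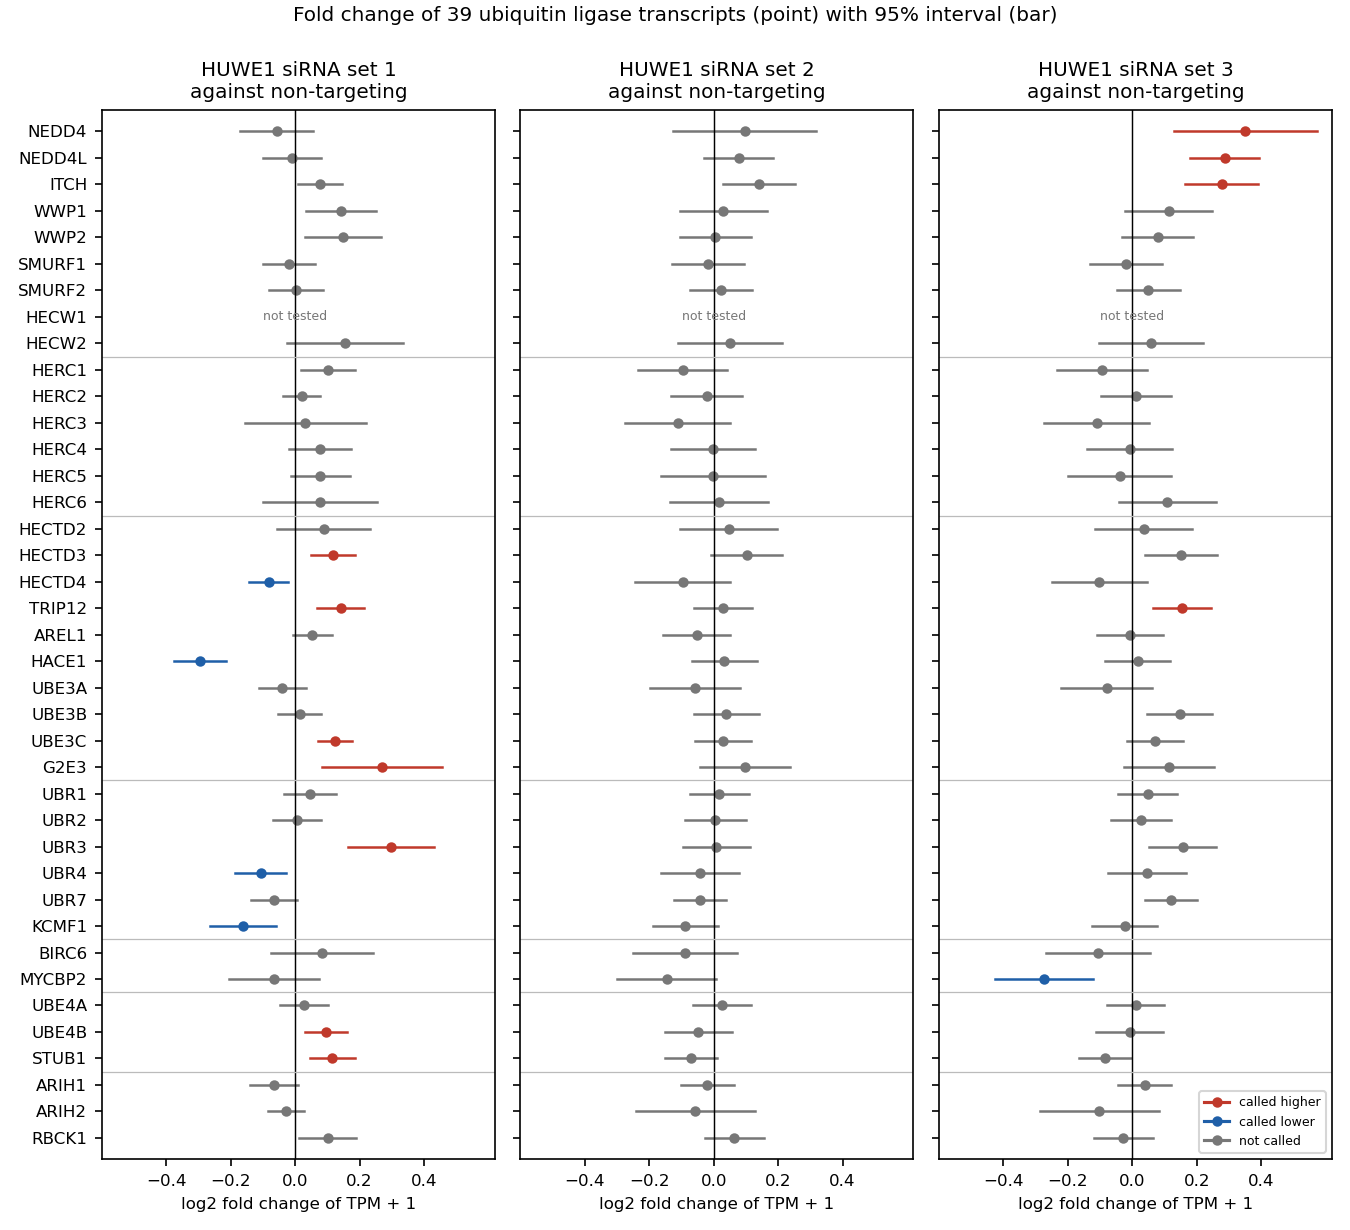
Log2 fold change of TPM + 1 (horizontal axis) of each ligase (vertical axis, by class) for HUWE1 siRNA sets 1, 2 and 3 against NT, with points at the estimate, bars for the 95% interval, red for members called higher, blue for members called lower and grey for those not called. Set 1 has 7 red and 4 blue members, set 2 none of either, and set 3 has 4 red, of which 3 are in the NEDD4 family, and 1 blue.

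TRIP12, which extends ubiquitin chains and acts on the ARF tumour suppressor and in the DNA damage response, lies on chromosome 2 (GRCh38, 229763838 to 229923239, minus strand). Its RefSeq promoter stretch (GRCh38.p14, chr2:229921790-229921879, minus strand, the longest stretch of the window without a GENCODE exon) is shown because it was the member called in 2 sets, and capitals mark GC boxes (GGGCGG) and a CCAAT box read on the other strand (ATTGG).
TRIP12: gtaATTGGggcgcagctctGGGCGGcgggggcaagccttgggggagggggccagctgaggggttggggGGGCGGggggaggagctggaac
TRIP12 was at 44.7, 47.9, 48.7 and 47.0 TPM in the NT libraries of set 1 and at 52.2, 50.2, 53.5 and 52.3 TPM with HUWE1 siRNA. The NT libraries of sets 2 and 3 had 59.9, 59.2, 59.5 and 58.7 TPM, set 2 had 63.6, 57.0, 59.3 and 62.6 TPM and set 3 had 68.6, 63.5, 65.9 and 66.9 TPM. Every knockdown library of sets 1 and 3 lay above every control of its table, and set 2 overlapped its controls. The rise was 0.14 ± 0.033 in set 1 and 0.16 ± 0.041 in set 3 (log2 ± SE, limma adjusted p = 0.00974 and 0.0368), with 0.03 ± 0.041 in set 2 (limma adjusted p = 0.805). Set 3 against set 2 was 0.13 ± 0.041 (limma adjusted p = 0.181). The set 1 call held under all 18 alternatives, whereas the set 3 call held under 9 of 20, and with TPM recomputed without mitochondrial genes the set 3 value was 0.13 (limma adjusted p = 0.0673).

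The NEDD4 family ligases carry WW domains that bind PY motifs of membrane proteins and adaptors. Of 8 tested, NEDD4, NEDD4L and ITCH rose in set 3, beside 7.45% of all genes higher there. In set 1 no member of the family was called, beside 30.3% of all genes, and in set 2 none, beside 0.0126%. None of the 3 passed in set 3 against set 2. NEDD4, the founder of the family (GRCh38 chromosome 15, 55826922 to 55993746, minus strand), was at 9.83, 10.5, 10.2 and 12.7 TPM in the NT libraries, at 14.5, 10.9, 10.6 and 10.8 TPM in set 2 and at 13.6, 12.6, 15.1 and 14.9 TPM in set 3. In set 1 it was at 9.74, 11.3, 10.8 and 10.6 TPM in NT and 10.4, 9.49, 10.3 and 10.4 TPM with HUWE1 siRNA. NT replicate 4 overlapped the set 3 range, and set 2 replicate 1 lay well above the other set 2 libraries. NEDD4 rose by 0.35 ± 0.102 in set 3 (log2 ± SE, limma adjusted p = 0.0462), beside 0.10 ± 0.102 in set 2 and -0.06 ± 0.051 in set 1. Set 3 against set 2 was 0.25 ± 0.102 (log2 ± SE, limma adjusted p = 0.256). The set 3 call held under 6 of 20 alternatives, with values from 0.31 to 0.42. Without mitochondrial genes NEDD4 was at 0.33 (limma adjusted p = 0.0586), and leaving out NT replicate 4 gave 0.42 (limma adjusted p = 0.00772).

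NEDD4L, known for removing the epithelial sodium channel from the membrane (GRCh38 chromosome 18, 58044367 to 58401540, plus strand), was at 10.2, 9.88, 10.1 and 10.5 TPM in the NT libraries of the second table. Set 2 had 11.5, 10.4, 10.6 and 10.8 TPM and set 3 had 13.3, 12.04, 13.1 and 12.2 TPM. All 4 set 3 libraries lay above all NT and all set 2 libraries. The rise in set 3 was 0.29 ± 0.050 (log2 ± SE, limma adjusted p = 0.0114), and it held under all 20 alternatives. Set 2 gave 0.08 ± 0.050 (limma adjusted p = 0.635), and set 3 exceeded set 2 by 0.21 ± 0.050 without passing the threshold (limma adjusted p = 0.0860). In the first table it was at 9.75, 9.62, 9.37 and 9.05 TPM in NT and 9.66, 9.29, 9.49 and 9.09 TPM with HUWE1 siRNA, a difference of -0.01 ± 0.040 (95% interval -0.10 to 0.08). Exons on the opposite strand overlap NEDD4L, and no source used here says whether the authors counted by strand.

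ITCH, which ubiquitinates JUNB and restrains T cell responses, lies on chromosome 20 (GRCh38, 34363235 to 34511393, plus strand). Its promoter stretch (RefSeq, GRCh38.p14, chr20:34363023-34363234, plus strand) is shown for a member called in set 3 with no overlapping gene, with GC boxes in capitals.
ITCH: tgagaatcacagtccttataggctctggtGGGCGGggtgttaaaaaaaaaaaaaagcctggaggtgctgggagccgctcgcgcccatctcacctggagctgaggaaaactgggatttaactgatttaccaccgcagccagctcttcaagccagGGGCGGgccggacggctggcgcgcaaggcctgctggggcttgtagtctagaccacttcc
ITCH stood at 25.9, 25.6, 26.8 and 28.4 TPM in the NT libraries of sets 2 and 3, at 31.6, 27.7, 28.3 and 30.5 TPM in set 2 and at 32.8, 30.7, 33.3 and 33.4 TPM in set 3. In set 1 it went from 24.9, 25.6, 25.6 and 25.3 TPM in NT to 26.3, 26.3, 28.0 and 26.6 TPM. Knockdown libraries lay above all controls in sets 1 and 3, and in set 2 replicates 2 and 3 lay just under the highest control. ITCH rose by 0.28 ± 0.052 in set 3 (log2 ± SE, limma adjusted p = 0.0139). The other sets gave 0.14 ± 0.052 in set 2 (limma adjusted p = 0.492) and 0.08 ± 0.030 in set 1 (limma adjusted p = 0.0805), both above 0 without a call. Set 3 exceeded set 2 by 0.14 ± 0.052 for ITCH (log2 ± SE, limma adjusted p = 0.228). ITCH was the only member with an unadjusted p under 0.05 in set 2, 2.63% of members beside 8.83% of all genes. The set 3 call was lost without set 3 replicate 3 (limma adjusted p = 0.0518) or replicate 4 (0.0541) and held under the 18 other alternatives.

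The remaining NEDD4 relatives were not called in any set. They were WWP1, WWP2, SMURF1 and SMURF2, which target receptors and SMAD proteins, and HECW2. HECW2 was at 1.53, 1.97, 1.74 and 1.86 TPM in the set 1 controls and at 1.93, 1.98, 2.07 and 2.37 TPM after HUWE1 siRNA. It had 1.602, 1.45, 1.44 and 1.43 TPM in the NT libraries of the second table, 1.63, 1.40, 1.58 and 1.68 TPM in set 2 and 1.62, 1.63, 1.42 and 1.68 TPM in set 3. The groups overlapped in all 3 sets, and the differences were 0.16 ± 0.081, 0.05 ± 0.074 and 0.06 ± 0.074 (log2 ± SE). In set 1, WWP1 differed by 0.14 ± 0.049 and WWP2 by 0.15 ± 0.052 (log2 ± SE, limma adjusted p = 0.0528 and 0.0566), and each was called higher under 8 of 18 alternatives, among them TPM without mitochondrial genes. SMURF1 and SMURF2 stayed within 0.05 of 0 on the log2 scale in every set, with SMURF2 at most at 0.05 ± 0.045. HECW1, not tested, had between 0.0194 and 0.264 TPM over the 20 libraries.

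**Figure D3:**
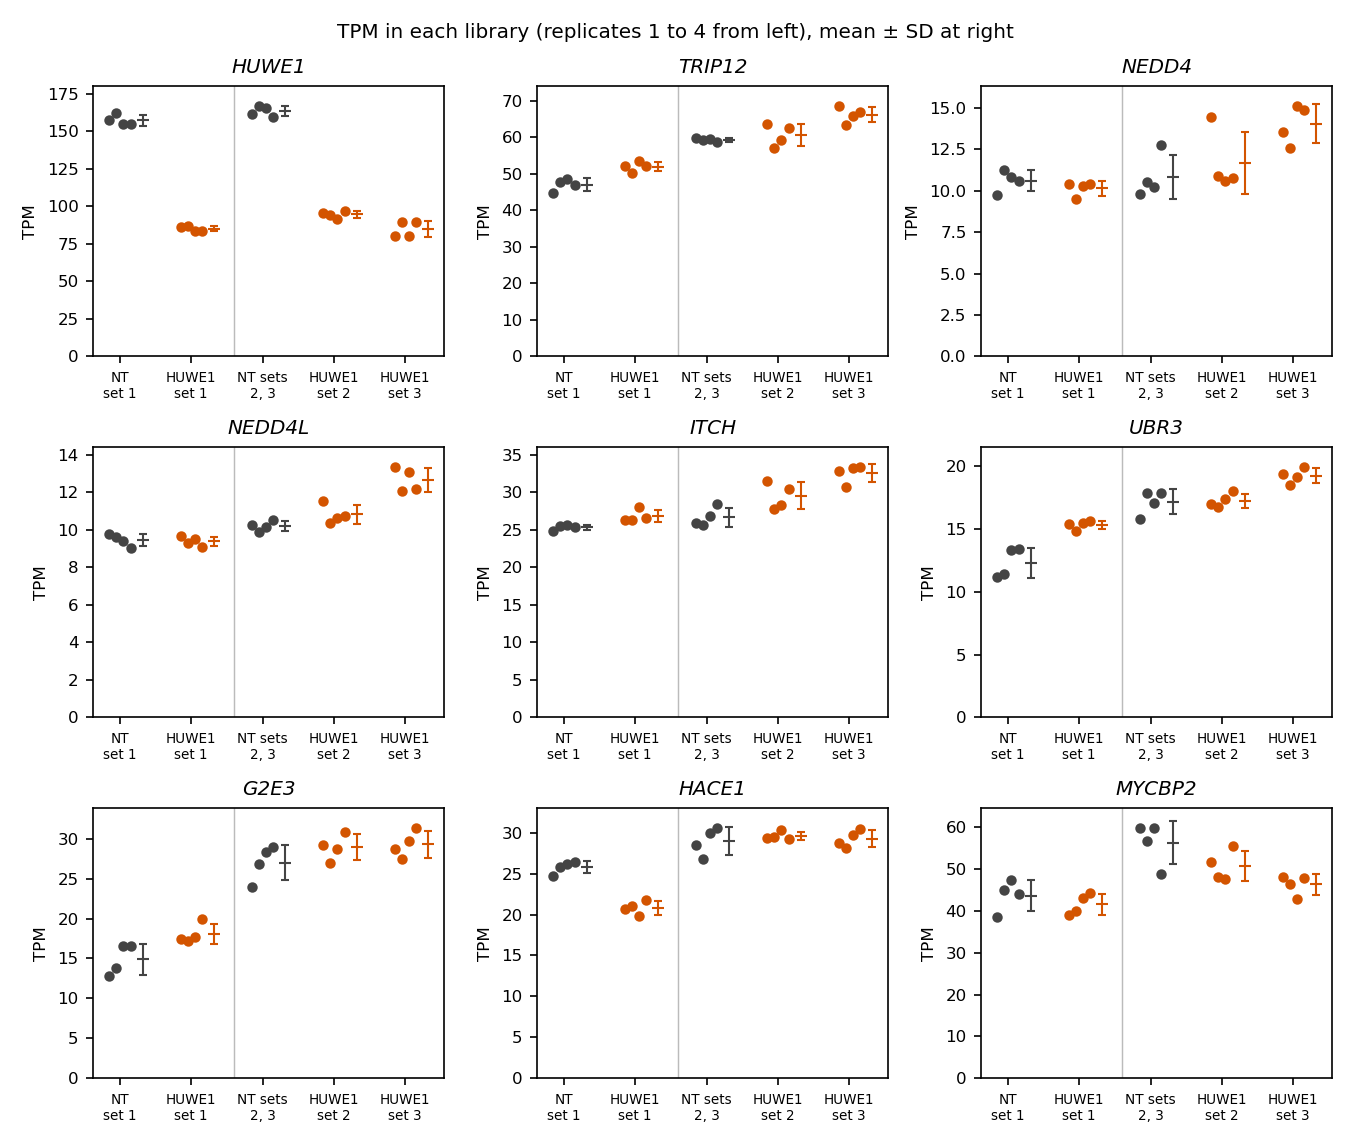
TPM (vertical axes, from 0) of HUWE1 and 8 related ligases in each of the 20 libraries (horizontal axes, groups of 4 libraries in replicate order, grey for NT and orange for HUWE1 siRNA), with the mean and SD to the right of each group and a line between the separately normalized tables. The groups separate for HUWE1 in all 3 sets, for TRIP12, ITCH and UBR3 in sets 1 and 3, for NEDD4L and MYCBP2 in set 3, and for HACE1 and G2E3 in set 1.

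The 6 HERC proteins, which pair a HECT domain with RCC1-like repeats, had no call in any set. Of all genes, 30.3%, 0.0126% and 11.6% were called in sets 1, 2 and 3. HERC5 is the main ligase for ISG15, and HERC2 assembles DNA repair complexes. Log2 fold changes of the HERC members ran from 0.02 to 0.10 in set 1 and from -0.11 to 0.02 in set 2. In set 3 they ran from -0.11 to 0.11. Above 0 were 6, 1 and 2 of the 6, beside 46.6%, 48.3% and 51.5% of all genes. HERC3, with the second lowest fold change of set 3, was at 11.97, 11.2, 11.6 and 10.1 TPM in NT, 10.5, 9.91, 9.93 and 10.9 TPM in set 2 and 10.9, 10.7, 8.70 and 11.1 TPM in set 3. In set 1 it was at 9.58, 8.46, 9.26 and 9.61 TPM in NT and 9.52, 7.72, 10.6 and 10.2 TPM with HUWE1 siRNA. Its groups overlapped throughout, with differences of 0.03 ± 0.084, -0.11 ± 0.075 and -0.11 ± 0.075 (log2 ± SE) in sets 1, 2 and 3. HERC1 gave 0.10 ± 0.038 in set 1 (log2 ± SE, limma adjusted p = 0.0631), -0.10 ± 0.064 in set 2 and -0.09 ± 0.064 in set 3. HERC2 has 9 pseudogenes named after it in the annotation, so its value depends on how reads were assigned.

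Of the 10 other HECT ligases, TRIP12, UBE3C, HECTD3 and G2E3 rose in set 1 and HACE1 and HECTD4 fell, beside 30.3% of all genes called. In set 3 TRIP12 was called, beside 11.6% of all genes. The difference between the sets was not tested. G2E3, a ligase tied to the G2/M phase and early embryonic survival (GRCh38 chromosome 14, 30559123 to 30620063, plus strand), was at 12.8, 13.8, 16.5 and 16.5 TPM in the set 1 controls and at 17.5, 17.3, 17.7 and 20.005 TPM after HUWE1 siRNA. Knockdown libraries all exceeded the controls, which themselves fell into a lower and a higher pair. G2E3 in the second table was at 23.9, 26.8, 28.3 and 28.96 TPM in NT, 29.3, 26.9, 28.7 and 30.9 TPM in set 2 and 28.7, 27.4, 29.7 and 31.3 TPM in set 3, with overlap in both sets. The rise in set 1 was 0.27 ± 0.083 (log2 ± SE, limma adjusted p = 0.0339), held under 12 of 18 alternatives and was not called without NT replicate 1 or 2 or HUWE1 siRNA replicate 3 or 4. Sets 2 and 3 gave 0.10 ± 0.064 and 0.11 ± 0.064. G2E3-AS1 overlaps G2E3 on the opposite strand.

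UBE3C, a proteasome-bound ligase that extends ubiquitin chains on stalled substrates (GRCh38 chromosome 7, 157138913 to 157269372, plus strand), was at 77.5, 73.8, 74.9 and 76.3 TPM in the set 1 controls and 82.9, 81.9, 83.2 and 81.8 TPM after HUWE1 siRNA. UBE3C in the second table was at 88.4, 94.3, 94.5 and 93.3 TPM in NT, 98.5, 89.6, 92.4 and 97.4 TPM in set 2 and 99.6, 95.6, 97.4 and 96.3 TPM in set 3. The knockdown libraries lay above all controls in sets 1 and 3. UBE3C rose by 0.12 ± 0.023 in set 1 (log2 ± SE, limma adjusted p = 0.00380), and under all 18 alternatives, with 0.03 ± 0.040 in set 2 and 0.07 ± 0.040 in set 3 (limma adjusted p = 0.806 and 0.226).

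HECTD3 (GRCh38 chromosome 1, 45002540 to 45011329, minus strand) was at 29.5, 27.7, 27.9 and 27.8 TPM in the set 1 controls and 30.8, 31.3, 29.9 and 31.0 TPM after HUWE1 siRNA. The second table gave 19.8, 18.6, 19.0 and 19.2 TPM in NT, 22.6, 19.8, 20.6 and 19.8 TPM in set 2 and 21.4, 20.2, 21.5 and 22.6 TPM in set 3. Its libraries were above all controls in sets 1 and 3, and in set 2 replicates 2 and 4 lay just under the highest control. The rise in set 1 was 0.12 ± 0.031 (log2 ± SE, limma adjusted p = 0.0171), held under all 18 alternatives. Sets 2 and 3 gave 0.10 ± 0.051 and 0.15 ± 0.051 (limma adjusted p = 0.576 and 0.0654), neither of them called.

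HACE1, which marks active RAC1 for degradation (GRCh38 chromosome 6, 104728093 to 104859919, minus strand), had the largest fall of the members in set 1. Its promoter window (RefSeq, GRCh38.p14, chr6:104859920-104860169, minus strand) is shown because its set 1 value stood apart from sets 2 and 3, with CCAAT boxes, 1 on each strand, and a GC box read on the other strand (CCGCCC) in capitals.
HACE1: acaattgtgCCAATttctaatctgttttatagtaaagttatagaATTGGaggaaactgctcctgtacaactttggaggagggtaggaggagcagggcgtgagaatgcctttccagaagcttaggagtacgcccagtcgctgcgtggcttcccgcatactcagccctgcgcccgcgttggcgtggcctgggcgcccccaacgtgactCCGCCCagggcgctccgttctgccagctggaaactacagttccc
HACE1 was at 24.7, 25.8, 26.2 and 26.4 TPM in the set 1 controls and at 20.7, 21.0, 19.8 and 21.8 TPM after HUWE1 siRNA, with a clear gap between the groups. HACE1 in the second table was at 28.4, 26.7, 30.0 and 30.6 TPM in NT, 29.4, 29.5, 30.4 and 29.2 TPM in set 2 and 28.7, 28.2, 29.7 and 30.5 TPM in set 3, where all groups overlapped. HACE1 fell by 0.30 ± 0.037 on the log2 scale in set 1 (SE, limma adjusted p = 0.000477), to 80.8% of control, and did so under all 18 alternatives. The 95% intervals in set 2 (-0.07 to 0.13) and set 3 (-0.08 to 0.12) did not reach that value. The difference between set 1 and the other sets was not tested, since the tables were normalized separately.

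HECTD4 (GRCh38 chromosome 12, 112160188 to 112382439, minus strand) was at 28.8, 28.6, 28.4 and 28.6 TPM in the set 1 controls and 27.3, 27.0, 27.3 and 26.2 TPM after HUWE1 siRNA. HECTD4 in the second table was at 24.1, 22.0, 22.8 and 19.0 TPM in NT, 21.0, 19.9, 19.6 and 21.2 TPM in set 2 and 21.2, 21.4, 18.5 and 20.4 TPM in set 3. The set 1 groups did not overlap, and in the second table NT replicate 4 lay below most knockdown libraries. HECTD4 fell by 0.08 ± 0.027 in set 1 (log2 ± SE, limma adjusted p = 0.0432), a call that held under 5 of 18 alternatives and not without mitochondrial genes, with -0.10 ± 0.068 in both other sets. AREL1, HECTD2, UBE3A and UBE3B were not called in any set. UBE3A, the ligase lost in Angelman syndrome, gave -0.04 ± 0.033, -0.06 ± 0.065 and -0.08 ± 0.065 in sets 1, 2 and 3 (log2 ± SE), and UBE3B gave 0.15 ± 0.046 in set 3 (log2 ± SE, limma adjusted p = 0.0553).

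Among UBR proteins and KCMF1, UBR3 rose and UBR4 and KCMF1 fell in set 1, beside 12.3% of all genes higher and 17.9% lower. UBR3, which reads protein N-termini (GRCh38 chromosome 2, 169827458 to 170084131, plus strand), was at 11.2, 11.4, 13.3 and 13.4 TPM in the set 1 controls and at 15.4, 14.8, 15.5 and 15.6 TPM after HUWE1 siRNA. UBR3 in the second table was at 15.8, 17.9, 17.1 and 17.9 TPM in NT, 17.0, 16.7, 17.4 and 18.0 TPM in set 2 and 19.4, 18.5, 19.1 and 19.9 TPM in set 3. The knockdown libraries were above all controls in sets 1 and 3, while set 2 fell within the control range but for its highest library. UBR3 rose by 0.30 ± 0.060 in set 1 (log2 ± SE, limma adjusted p = 0.00498), the largest rise there, and under all 18 alternatives. Set 3 gave 0.16 ± 0.048 (limma adjusted p = 0.0514), just outside the threshold, and set 2 gave 0.01 ± 0.048 (95% interval -0.10 to 0.11).

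UBR4, a giant N-degron reader that works with KCMF1 (GRCh38 chromosome 1, 19074506 to 19210276, minus strand), was at 66.9, 68.7, 69.6 and 64.6 TPM in the set 1 controls and 65.6, 62.1, 62.9 and 59.6 TPM after HUWE1 siRNA. UBR4 in the second table was at 58.9, 53.2, 53.8 and 54.1 TPM in NT, 59.5, 52.8, 49.6 and 52.0 TPM in set 2 and 57.3, 56.7, 54.1 and 59.0 TPM in set 3. Groups overlapped in every set. UBR4 fell by 0.11 ± 0.035 in set 1 (log2 ± SE, limma adjusted p = 0.0418), under 7 of 18 alternatives and not without mitochondrial genes, with -0.04 ± 0.056 in set 2 and 0.05 ± 0.056 in set 3.

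KCMF1 (GRCh38 chromosome 2, 84971093 to 85059472, plus strand) was at 22.1, 21.7, 22.1 and 23.3 TPM in the set 1 controls and 20.8, 19.5, 20.9 and 18.3 TPM after HUWE1 siRNA, without overlap. KCMF1 in the second table was at 25.7, 22.4, 24.1 and 24.1 TPM in NT, 22.6, 23.1, 22.3 and 22.4 TPM in set 2 and 23.6, 22.5, 23.9 and 24.7 TPM in set 3, with overlap in both. KCMF1 fell by 0.16 ± 0.046 in set 1 (log2 ± SE, limma adjusted p = 0.0241), under 14 of 18 alternatives, beside -0.09 ± 0.046 in set 2 and -0.02 ± 0.046 in set 3.

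UBR7, which carries a PHD finger and acts on histone H2B, was among the most abundant members. It was at 85.1, 77.2, 83.4 and 84.6 TPM in the set 1 controls and 79.4, 77.8, 79.1 and 78.9 TPM after HUWE1 siRNA. UBR7 in the second table was at 92.0, 88.6, 89.6 and 86.9 TPM in NT, 89.4, 85.2, 86.4 and 85.6 TPM in set 2 and 95.4, 94.1, 102 and 97.2 TPM in set 3. Set 3 lay above both other groups in every library. UBR7 differed by -0.07 ± 0.032, -0.04 ± 0.037 and 0.12 ± 0.037 in sets 1, 2 and 3 (log2 ± SE, limma adjusted p = 0.154, 0.700 and 0.0516). Set 3 exceeded set 2 by 0.16 ± 0.037 (log2 ± SE, limma adjusted p = 0.0724), and this was called only when NT replicates 1 and 4 were left out together (limma adjusted p = 0.0343). UBR1 and UBR2, the classical readers of basic and bulky N-termini, stayed at or under 0.05 ± 0.043 on the log2 scale in every set.

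Of the giants outside the HECT class, MYCBP2 fell in set 3, where 4.15% of all genes were lower. BIRC6 was not called in any set. MYCBP2, a neuronal ligase of axon growth that attaches ubiquitin to threonine (GRCh38 chromosome 13, 77044655 to 77327050, minus strand), was at 59.7, 56.7, 59.7 and 48.9 TPM in the NT libraries of the second table. Set 2 had 51.5, 48.1, 47.6 and 55.5 TPM and set 3 had 48.0, 46.4, 42.7 and 47.9 TPM. The set 3 libraries lay below all controls, but NT replicate 4 was within 1 TPM of the highest of them. MYCBP2 fell by 0.27 ± 0.071 in set 3 (log2 ± SE, limma adjusted p = 0.0344), to 82.2% of control, with -0.15 ± 0.071 in set 2 (limma adjusted p = 0.569). In set 1 it was at 38.4, 44.8, 47.3 and 43.9 TPM in NT and 38.995, 39.8, 43.1 and 44.1 TPM with HUWE1 siRNA, a difference of -0.07 ± 0.063. MYCBP2-AS1 overlaps it on the opposite strand.

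BIRC6, which combines E2 and E3 functions and inhibits caspases, was at 25.7, 30.8, 32.8 and 30.6 TPM in the set 1 controls and 30.2, 29.8, 33.6 and 33.4 TPM after HUWE1 siRNA. BIRC6 in the second table was at 39.1, 33.7, 37.0 and 30.5 TPM in NT, 33.8, 31.7, 30.5 and 35.4 TPM in set 2 and 34.0, 33.2, 29.9 and 32.6 TPM in set 3. All groups overlapped, with 0.08 ± 0.071, -0.09 ± 0.074 and -0.11 ± 0.074 in sets 1, 2 and 3 (log2 ± SE). The controls of the second table differed among themselves: NT replicate 4 minus NT replicate 1 was -0.35 for BIRC6, -0.32 for HECTD4 and -0.28 for MYCBP2 on the log2 scale, beside 0.34 for NEDD4. The MYCBP2 call in set 3 held under 10 of 20 alternatives. It was lost with no filter, with a block for the replicate number and with only the groups compared. Leaving out NT replicate 1, 2 or 3 or set 3 replicate 1, 2, 3 or 4 also ended it (limma adjusted p at most 0.104 over the alternatives). The log2 difference was -0.34 without NT replicate 4 and -0.25 after each library's trend over transcript length was taken out (limma adjusted p = 0.00323 and 0.0123). The length alternative was chosen after the data were seen.

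Of the U-box ligases, STUB1 and UBE4B rose in set 1, where 12.3% of all genes were higher. UBE4A was not called in any set. STUB1, the chaperone-bound ligase CHIP (GRCh38 chromosome 16, 680224 to 682870, plus strand), was at 93.5, 94.1, 91.0 and 93.8 TPM in the set 1 controls and 95.5, 105, 102 and 101 TPM after HUWE1 siRNA. STUB1 in the second table was at 90.9, 88.4, 83.7 and 88.3 TPM in NT, 84.1, 83.4, 83.0 and 83.8 TPM in set 2 and 82.3, 84.6, 79.2 and 85.1 TPM in set 3. Knockdown lay above all controls in set 1 and overlapped them in sets 2 and 3. STUB1 rose by 0.12 ± 0.031 in set 1 (log2 ± SE, limma adjusted p = 0.0197), under 16 of 18 alternatives, while set 2 gave -0.07 ± 0.037 and set 3 gave -0.08 ± 0.037 (limma adjusted p = 0.590 and 0.129). JMJD8 overlaps STUB1 on the opposite strand.

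UBE4B, which lengthens ubiquitin chains (GRCh38 chromosome 1, 10032832 to 10181239, plus strand), was at 33.2, 32.7, 33.4 and 31.5 TPM in the set 1 controls and 34.9, 34.3, 35.96 and 34.9 TPM after HUWE1 siRNA, without overlap. UBE4B in the second table was at 34.1, 38.4, 36.3 and 36.6 TPM in NT, 36.5, 33.0, 35.8 and 35.2 TPM in set 2 and 38.1, 34.5, 35.6 and 36.3 TPM in set 3, with overlap in both. UBE4B rose by 0.10 ± 0.029 in set 1 (log2 ± SE, limma adjusted p = 0.0338), under 13 of 18 alternatives, beside -0.05 ± 0.048 and -0.01 ± 0.048 in sets 2 and 3.

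None of the RBR ligases was called, beside 30.3%, 0.0126% and 11.6% of all genes in sets 1, 2 and 3. ARIH2, which works with neddylated cullin-RING complexes and was the most abundant member in set 1, was at 103, 104, 99.3 and 102 TPM in NT and 102, 100.1, 101 and 97.5 TPM with HUWE1 siRNA. ARIH2 in the second table was at 89.7, 73.9, 81.0 and 65.9 TPM in NT, 68.6, 71.8, 75.8 and 80.8 TPM in set 2 and 75.7, 75.8, 68.7 and 67.3 TPM in set 3. Its controls there spread more widely than either knockdown group, and NT replicate 4 minus replicate 1 was -0.44 on the log2 scale. The differences were -0.03 ± 0.025, -0.06 ± 0.085 and -0.10 ± 0.085 (log2 ± SE). ARIH1 stayed between -0.07 and 0.04, and RBCK1, the HOIL-1 subunit of the linear chain assembly complex, gave 0.10 ± 0.040 in set 1, 0.06 ± 0.042 in set 2 and -0.03 ± 0.042 in set 3 (log2 ± SE).

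Members whose 4 knockdown libraries lay wholly above their 4 controls numbered 10 in set 1, 1 in set 2 (RBCK1) and 8 in set 3, beside 13.3%, 1.99% and 11.2% of all genes. In percent of members these were 26.3%, 2.63% and 21.1%. Wholly below were 3, 0 and 1 members, or 7.89%, 0 and 2.63%, beside 18.4%, 1.71% and 6.03% of all genes. Between the knockdowns, 4 members lay wholly higher in set 3 than in set 2 (NEDD4L, UBE3B, UBR3 and UBR7) and 1 wholly lower (RBCK1), beside 8.13% and 5.05% of all genes. Limma called 0 members in set 3 against set 2, when 0.517% of all genes were called, and 8 members had an unadjusted p under 0.05, 21.1% beside 15.8%. There the fold change was above 0 for 25 members, 65.8% beside 53% of all genes. The 95% interval reached a log2 rise of 0.5 for 0 members, beside 5.62%, and of 0.25 for 3, beside 29.7%, again without matching for abundance. HUWE1 itself differed between these sets by -0.16 ± 0.045 (log2 ± SE, limma adjusted p = 0.134).

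Fold changes of the members in set 1 were compared with those of sets 2 and 3, which share no library with it. Over 38 members Pearson's r was 0.31 with set 2 and 0.20 with set 3 (Spearman 0.35 and 0.26), and all points within a set share its controls. Over 15296 genes tested in both tables r was 0.29 and 0.38. The sign was the same for 26 and 23 of 38 members, 68.4% and 60.5%, beside 61.9% and 63.8% of all genes. UBR3 and G2E3, the highest in set 1, were also above 0 in the other sets. HACE1, the lowest, was not below 0 in either, and NEDD4 and NEDD4L, among the highest in set 3, were not above 0 in set 1.

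**Figure D4:**
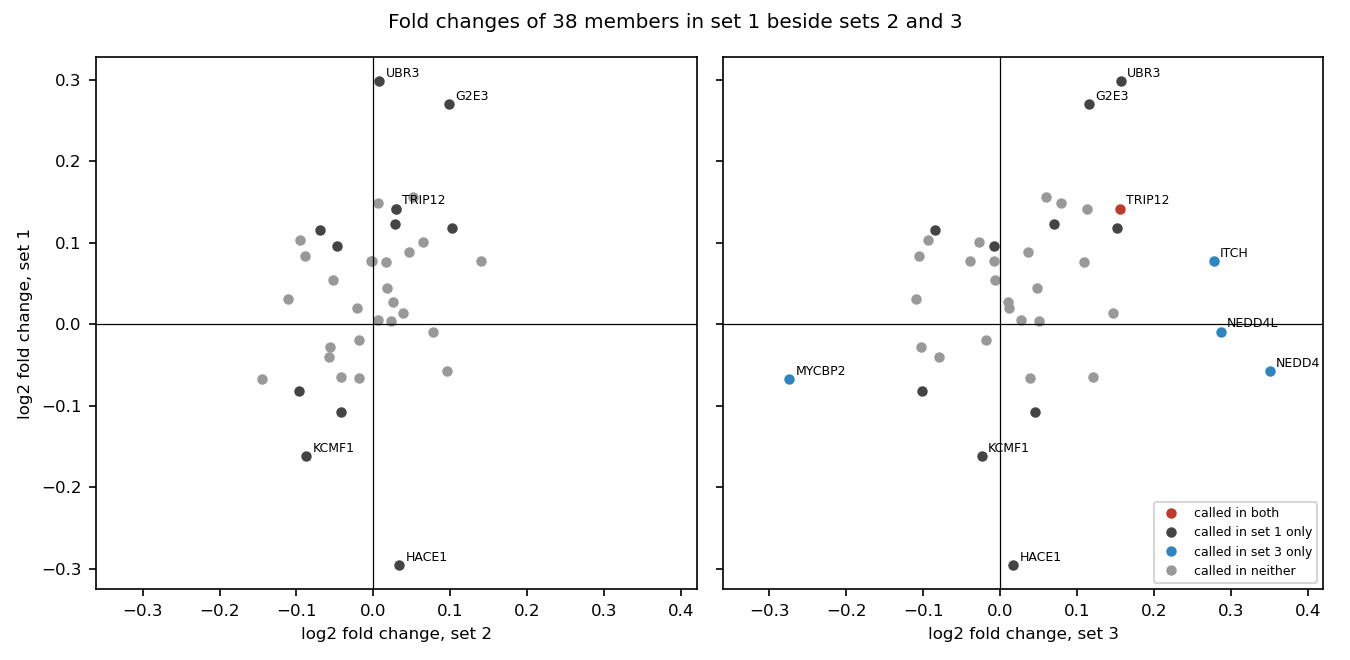
Log2 fold change of the 38 tested members in set 1 (vertical axes) against set 2 (left) and set 3 (right, horizontal axes), each point a gene and the colour showing in which set it was called. TRIP12 is the only member called in both sets of the right panel, and HACE1, NEDD4, NEDD4L and MYCBP2 of the right panel lie far from 0 in set 1 or set 3 and nearer to it in the other.

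Summed over ligases, the transcripts gave totals that can be set beside the HUWE1 loss. HUWE1 fell by 72.2 TPM in set 1, fell by 68.7 TPM in set 2 and fell by 78.5 TPM in set 3. The 25 HECT members together had 534, 545, 553 and 549 TPM in the set 1 controls and 569, 555, 570.3 and 571 TPM after HUWE1 siRNA, which is 103.9% of control, with no overlap. In the second table they summed to 595, 587, 602 and 578 TPM in NT, 618, 568, 588 and 613 TPM in set 2 and 630, 605, 617 and 624 TPM in set 3, or 101.1% and 104.8% of control. Set 3 was above all controls and set 2 was not. With TPM recomputed without mitochondrial genes, whose share was lower in set 3, the set 3 sum was 102.5% of control.

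By class, the sums ran from 86.2% to 110.8% of control. The NEDD4 family went from 140.4 ± 1.76 to 155.6 ± 3.71 TPM in set 3 (SD, n = 4), 110.8% of control without overlap, and was at 103.5% and 103.7% in sets 1 and 2 with overlap. U-box ligases went from 184.4 ± 1.18 to 195.7 ± 3.88 TPM in set 1 (SD, n = 4), 106.1% without overlap, and were at 97.4% and 97.2% in sets 2 and 3. BIRC6 and MYCBP2 together were at 99.6%, 91.4% and 86.2% of control in sets 1, 2 and 3, with overlap in each. HERC proteins were at 104.1%, 97.4% and 98.3% with overlap. The 10 other HECT ligases were at 104.0%, 101.1% and 104.4%, without overlap in set 1 and with overlap in sets 2 and 3. UBR proteins with KCMF1 were at 96.8%, 97.8% and 105.3%, and RBR ligases at 99.9%, 98.5% and 95.9%. All 39 members summed to 102.1%, 98.9% and 101.4% of control, the groups overlapping each time, and the last value was 99.2% without mitochondrial genes. The gains of the HECT members, 21.2, 6.26 and 28.3 TPM, were each smaller than the loss of HUWE1. These sums are descriptions without a test.

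**Figure D5:**
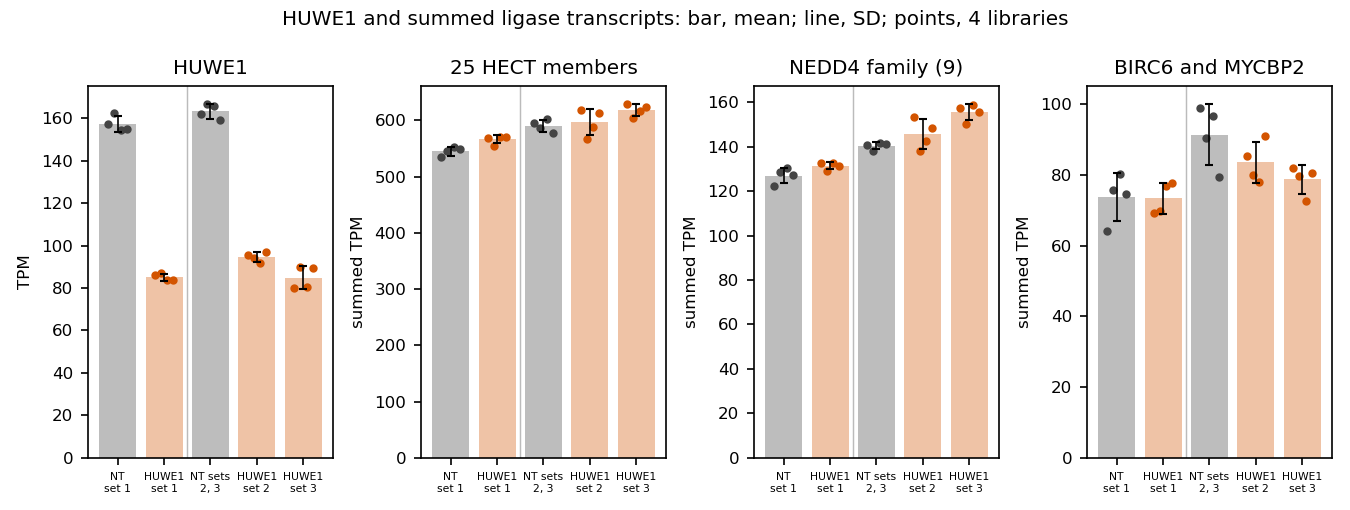
TPM of HUWE1 and summed TPM of the 25 HECT members, the 9 NEDD4 family members and BIRC6 with MYCBP2 (vertical axes, from 0) in the 5 groups (horizontal axes), with bars for the mean, lines for the SD and points for the 4 libraries, and a line between the separately normalized tables. HUWE1 falls to 54.1%, 57.9% and 51.9% of control while the HECT sum is at 103.9%, 101.1% and 104.8%.

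The genes that act upstream and beside these ligases were read from 7 lists of 55 genes, all tested. They hold ubiquitin and E1 genes, E2 enzymes, adaptors of the NEDD4 family, partners in linear chains, cullin partners of RBR ligases, N-degron processing enzymes and chaperone partners of STUB1. Set 1 had 8 higher and 11 lower of 55, set 2 had 0 and 0, and set 3 had 8 and 3, beside the shares of all genes given above. The set 3 counts were 19 and 10 without NT replicate 4 and 0 and 0 without NT replicate 3 or without set 3 replicate 3 or 4, so the genes named for set 3 rest on which libraries entered. Set 3 against set 2 had 1 higher, the NEDD4-binding membrane protein PMEPA1 (0.41 ± 0.078, log2 ± SE, limma adjusted p = 0.0434), and 0 lower.

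At the start of the cascade, 3 of 6 ubiquitin and E1 genes were higher in set 1 and 0 lower, beside 12.3% and 17.9% of all genes. UBA1 and RPS27A were among those that rose. UBA1, the main E1 enzyme that activates ubiquitin, rose from 196 to 238 TPM (0.28 ± 0.028, log2 ± SE, limma adjusted p = 0.000181), and RPS27A, which encodes ubiquitin fused to a ribosomal protein, rose by 0.13 on the log2 scale (limma adjusted p = 0.0285). UBA1 was not lower in the other sets either, at 187 TPM in NT, 196 TPM in set 2 and 227 TPM in set 3. In set 3, UBA6, the other ubiquitin E1, rose by 0.18 on the log2 scale. It was the only 1 of these 6 genes called there, beside 7.45% of all genes higher and 4.15% lower. Of 14 E2 enzymes, 3 rose and 3 fell in set 1, beside 12.3% and 17.9% of all genes. The called enzymes included UBE2Z (0.21), UBE2D4 (-0.28) and UBE2L3, the E2 that serves HECT and RBR ligases (-0.16). UBE2D4 also fell in set 3, by 0.47 on the log2 scale (limma adjusted p = 0.0155), where UBE2E1 (0.26) and UBE2V1 (0.12) rose.

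Among 10 adaptors of the NEDD4 family, set 1 had 1 higher and 2 lower and set 3 had 2 and 2. Of all genes, 12.3% were higher and 17.9% lower in set 1, and 7.45% and 4.15% in set 3. The arrestin-like adaptors ARRDC4 and ARRDC3 fell in set 1 by 0.35 and 0.26 on the log2 scale, and RNF11 rose by 0.18. In set 3, PMEPA1 rose from 4.95 to 6.77 TPM (0.38 ± 0.078, log2 ± SE, limma adjusted p = 0.0176), NDFIP1, an activator of ITCH and its relatives, rose by 0.15, and SMAD6 fell by 0.36 on the log2 scale. Of 9 cullin partners, CUL4A (-0.27), CUL1 (-0.17) and CUL3 (-0.15) fell in set 1 and RBX1 (0.30) rose in set 3. Of 5 linear chain partners, OTULIN fell by 0.10 in set 1, and RNF31, the catalytic partner of RBCK1, rose by 0.21 in set 3. Of 4 N-degron enzymes, NTAN1 fell by 0.17 in set 1. Of 7 chaperone partners of STUB1, BAG1 fell by 0.19 and HSPA8 rose by 0.09 in set 1, and HSP90AA1 rose by 0.31 in set 3.

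RefSeq promoter windows of 250 bases before the start were matched for 36 members. GGGCGG, the GC box, was found on either strand in 27 of 36, 75% beside 42.3% of 27305 promoter windows of the same length, and CCAAT in 9 of 36, 25% beside 33.0%. CCGGAAG, an ETS motif, was found in 8 (22.2% beside 8.82%) and CACGTG, the E-box, in 3 (8.33% beside 6.49%). TGATGCAA and TGACGTCA were in none, beside 0.820% and 1.77% of windows, and the NRF1 motif and AAGATGGCG were in 1 each, beside 1.13% and 0.641%. The 7 members higher in set 1 and the 4 higher in set 3 included windows with a GC box (TRIP12, ITCH, G2E3, UBR3 and UBE4B) and windows without (NEDD4, NEDD4L, UBE3C and HECTD3), and a match is a description of letters, not of binding.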

How the data were processed

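RNA of 20 HEK293T libraries was sequenced with a stranded mRNA kit, per the labels' protocols. Levels came as TPM in 2 tables that the authors deposited, each normalized on its own, on build hg38, per the submitters' processing notes. No source used here names the aligner, the counter or the gene models. Each library summed to 1000000, which hides its depth, so there is no counting interval. TPM is relative: a change in abundant transcripts shifts all others.

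From the deposited TPM, log2(TPM + 1) was fitted with limma 3.58.1 in R 4.3.3 (variance trend, two-sided, Benjamini-Hochberg adjustment), keeping genes that reached a TPM of 1 in 4 libraries or more of a table. Set 1 was fitted on 8 libraries and sets 2 and 3 in a single fit of 12. The procedure was tested on simulated data. Gene positions, overlaps and transcript lengths came from GENCODE release 29 and promoters from RefSeq. WWP1, UBR2 and STUB1 had no promoter entry.

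Members and lists were chosen with earlier results of these data known. Values in every library are given for members called in any comparison, the 3 largest rises and 3 largest falls of each set and the 5 highest in controls, and up to 3 called genes with the smallest p are named per pathway list. Alternatives were a pseudocount of 0.1, other filters (none, or a mean TPM of at least 5), TPM without mitochondrial genes, quantile normalization, median-of-ratios scaling, other variance models, a block for the replicate number, fits of only the compared groups, and leaving out libraries. Removal of the length trend, and all alternatives for HUWE1, pathway genes, sums and correlations, were added after seeing the data. A gene of the pathway lists is counted in their totals and not reported here by name.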

Additional observations from a re-analysis of the deposited data

Results flagged for a closer look

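In each group of 4 libraries, a library was singled out when its gap to the nearest other, as a share of the group's range, exceeded Dixon's 95% critical value. This was so in 10 of 200 groups over 40 genes, and chance alone gives about 1 in 20. In the set 1 controls, replicate 1 was highest for HECTD3 (29.5 TPM, others 27.7 to 27.9) and lowest for UBE3A (25.5 TPM, others 27.2 to 27.3). After HUWE1 siRNA in set 1, replicate 2 was lowest for NEDD4 (9.49 TPM, others 10.3 to 10.4) and for HERC5 (19.5 TPM, others 21.3 to 21.6), and replicate 4 was highest for G2E3 (20.005 TPM, others 17.3 to 17.7). Among the NT libraries of sets 2 and 3, replicate 1 was highest for HECW2 (1.602 TPM, others 1.43 to 1.45) and UBR4 (58.9 TPM, others 53.2 to 54.1) and lowest for RBCK1 (34.0 TPM, others 36.9 to 37.2). NEDD4 in set 2 was highest in replicate 1 (14.5 TPM, others 10.6 to 10.9). HERC1 in set 3 was lowest in replicate 3 (13.9 TPM, others 16.4 to 16.7).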

How the results depend on the processing

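No called member changed direction under any alternative. Counts of members and of pathway genes called under an alternative are given without the share of all genes called under it. A shift in these counts may be common to all genes and is not a result about the members. HACE1, UBR3, TRIP12, UBE3C and HECTD3 in set 1 and NEDD4L in set 3 were called under every alternative run. In set 1 the 7 higher members became 11 with median-of-ratios scaling, and the 4 lower became 2 with no filter, without mitochondrial genes, with quantile normalization and with median-of-ratios scaling. Leaving out a library gave 4 to 9 higher (4 without HUWE1 siRNA replicate 3) and 1 to 3 lower (1 without HUWE1 siRNA replicate 2 or 4).

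In set 3 the 4 higher and 1 lower became 2 and 0 with no filter, 2 and 0 with only the groups compared, 7 higher with a mean TPM of 5 or more and 2 higher without mitochondrial genes. Leaving out a library gave 1 to 7 higher and 0 to 2 lower: 7 and 2 without NT replicate 4, 2 and 0 without NT replicate 1, 2 or 3 or set 3 replicate 1, 1 and 0 without set 3 replicate 3 or 4, and 0 lower without set 3 replicate 2. Set 3 against set 2 gave 2 higher with NT replicates 1 and 4 left out together. Set 2 stayed at 0 throughout.

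Same-numbered libraries did not all deviate together, and 0, 0 and 2 of 4 pairs in sets 1, 2 and 3 had a correlation over 0.1 (values from 0.000215 to 0.0521 in set 1, -0.481 to 0.0389 in set 2 and -0.0266 to 0.407 in set 3), and the best match had the same number for 1, 0 and 1 of 4 control libraries. With the replicate number as a block, set 3 had 2 higher and 0 lower members, without the NEDD4, TRIP12 and MYCBP2 calls, and the other member counts stayed within 1.5 times.

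Summed TPM in percent of control moved beyond 1 SD with median-of-ratios scaling in set 1 (all members 103.3%, HECT ligases outside the NEDD4 and HERC families 105.2%). Without mitochondrial genes it did so in set 3: all members 99.2%, HECT 102.5%, those other HECT ligases 102.1%, UBR and KCMF1 103.0%, U-box 95.1%. Without each library in turn, r between set 1 and set 2 ran from 0.186 to 0.413 and between set 1 and set 3 from 0.137 to 0.258. Pathway genes called in set 3 numbered 1 higher and 1 lower with only the groups compared and 14 and 6 with NT replicates 1 and 4 left out. The cause of these shifts was not tested. Depth is unknown.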
